A study of Homo sapiens and Mus musculus with 28 samples.

Results

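Described here are 44 genes of epithelial-mesenchymal transition and of the extracellular matrix in SCC1, an established human head and neck squamous carcinoma cell line. The genes were taken from a list of symbols, and each was found under 1 Ensembl ID among 35135 IDs, so none was lost. By role there were 5 transcription factors, 7 cadherin, cytoskeletal or surface genes, 6 ligand, receptor or target genes of TGF-beta signalling, 9 proteases or regulators, 13 matrix genes and 4 integrins.

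The study sequenced polyadenylated RNA of 28 libraries on REXO4, an RNA exonuclease, and of these the 24 SCC1 libraries, 3 in each of 8 groups, were used here. In the first experiment of 15 libraries, KO_2 cells were given BX_795 or H151, R4KO_2 and R4KO_1 REXO4-knockout cells were given vehicle, and control cells were given vehicle (Ctrl). The KO_2 cells are taken to be R4KO_2 cells from the shared number, and the labels do not say whether a knockout line is 1 clone or a pool. In the second experiment of 9 libraries, cells were labelled H151_iR4, iR4 or Vehicle, and the labels do not say what iR4 is. H-151 covalently blocks STING, the adaptor of cytosolic DNA sensing, and BX-795 blocks the kinase TBK1 below it, and other kinases too. No group was labelled KO_2 with vehicle, so a difference between KO_2 and R4KO_2 cultures cannot be told apart from a drug effect. No group had H151 or BX_795 without iR4 or a knockout. A change that a drug makes in any SCC1 cell thus cannot be told apart from a reversal of the iR4 or knockout change. Neither doses nor times were given in the sources used here. The labels do not say whether replicates were separate cultures, so p-values may measure only technical spread.

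In epithelial-mesenchymal transition, carcinoma cells weaken E-cadherin junctions and take up N-cadherin, vimentin and a migratory cytoskeleton. Transcription factors of the SNAI, ZEB and TWIST families drive it, often under TGF-beta, and squamous carcinomas commonly show only a part of the program at their invasive edge. The same cells lay down fibronectin, collagens and crosslinking enzymes, hold them through integrins, and cut them with plasmin and matrix metalloproteinases (MMPs).

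Levels below are CPM, the share of a library's counts that fell on a gene, scaled to a total of 1000000 with edgeR's TMM factors over the 24 libraries. REXO4 had 19.4, 18.6 and 18.6 CPM in KO_2 BX_795 libraries and 17.3, 16.8 and 19.6 CPM in KO_2 H151 libraries, against 6.89, 6.97 and 4.92 CPM in R4KO_2 libraries with vehicle. It had 9.13, 9.77 and 9.27 CPM in R4KO_1 libraries, against 74.1, 76.8 and 70.8 CPM in Ctrl libraries. In the second experiment it had 92.9, 88.6 and 92.8 CPM in H151_iR4 libraries and 63.5, 57.8 and 63.7 CPM in iR4 libraries, against 92.2, 98.95 and 98.2 CPM in Vehicle libraries. The knockouts thus kept some transcript, and the drug-treated KO_2 libraries held more of it than the R4KO_2 libraries they are set against. Total counts ran from 16.04 to 27.94 M per library, and the drug-treated KO_2 libraries were all deeper than the R4KO_2 ones (21.36 to 27.94 M against 17.53 to 17.67 M). All 8 squamous epithelial markers stood at 1 CPM or more in every group. Their summed level ran from 1911 to 4249 CPM. Of 9 fibroblast markers, 1 to 3 reached 1 CPM in a group, summing to 22.8 to 47.9 CPM over the libraries, most of it COL1A1. None of 5 endothelial or 6 leukocyte markers did, with sums of at most 2.10 and 0.897 CPM. In bulk RNA, fewer cells of a type and less RNA per cell cannot be told apart. Of the 44 genes, 35 overlap another gene of GENCODE v29, and the labels give no strand setting for the counting, so reads from an antisense partner cannot be told apart. The partners include protein-coding genes for TAGLN (PCSK7), TGFB1, PLAU (C10orf55), LOX (SRFBP1), TNC (DEC1), THBS1 (FSIP1) and the pair COL4A1 and COL4A2.

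Promoter sequence is shown for 4 genes that moved in the knockouts, with iR4 or with the drugs, and for the gap between the start sites of the neighbouring collagen genes COL4A1 and COL4A2, which are read in opposite directions. The sequences are from RefSeq on build GRCh38.p14, whose promoter table held 32 of the 44 genes. Each promoter is the 250 bases upstream of the start, read 5′ to 3′ on the gene's strand. Capitals mark CAGGTG, the other strand of the E-box CACCTG, in PLAU (the downstream of 2 listed starts, chr10:73910882-73911131, plus strand). They mark an AP-1 motif (TGANTCA) in PLAUR (chr19:43670170-43670419, minus strand) and MMP10 (chr11:102780629-102780878, minus strand), a CRE (TGACGTCA) in FN1 (chr2:215436069-215436318, minus strand), and CCAAT in the 126 bases between the collagen genes (chr13:110307158-110307283, shown on the plus strand of COL4A2).
PLAU: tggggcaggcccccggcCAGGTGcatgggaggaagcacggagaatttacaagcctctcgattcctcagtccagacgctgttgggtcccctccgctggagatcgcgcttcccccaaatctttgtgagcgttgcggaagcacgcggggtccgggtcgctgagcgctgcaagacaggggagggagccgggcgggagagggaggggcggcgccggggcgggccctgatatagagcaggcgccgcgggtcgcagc
PLAUR: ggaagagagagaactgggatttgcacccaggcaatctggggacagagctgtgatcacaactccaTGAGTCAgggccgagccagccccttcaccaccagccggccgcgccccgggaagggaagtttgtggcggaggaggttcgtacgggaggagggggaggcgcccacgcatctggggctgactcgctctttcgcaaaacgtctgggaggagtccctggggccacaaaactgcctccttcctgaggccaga
MMP10: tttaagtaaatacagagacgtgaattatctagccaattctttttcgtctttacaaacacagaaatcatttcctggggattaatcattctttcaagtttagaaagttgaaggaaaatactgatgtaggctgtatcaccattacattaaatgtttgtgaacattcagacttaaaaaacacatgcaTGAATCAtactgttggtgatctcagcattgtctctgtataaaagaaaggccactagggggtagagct
FN1: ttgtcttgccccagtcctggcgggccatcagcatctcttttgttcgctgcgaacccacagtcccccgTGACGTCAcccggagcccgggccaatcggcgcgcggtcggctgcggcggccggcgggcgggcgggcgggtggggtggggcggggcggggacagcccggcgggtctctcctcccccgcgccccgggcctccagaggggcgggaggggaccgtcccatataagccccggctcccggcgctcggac
COL4A1-COL4A2: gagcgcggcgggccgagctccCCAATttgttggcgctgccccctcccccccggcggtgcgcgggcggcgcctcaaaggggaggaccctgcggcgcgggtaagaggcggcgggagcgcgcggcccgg
Both strands of all 35116 listed promoters were searched for each motif on its own, so matches of different motifs may overlap. The AP-1 motif stood in 6.57% of them and in 3 of the 32 genes here (CDH2, MMP10 and PLAUR), the CRE in 1.65% and in FN1 alone of the 32, and the E-box in 17.5% and in 5 of the 32. CCAAT stood in 32% and in 15 of the 32. A TEAD motif (GGAATG) stood in 11.9% and in 6 of the 32, and TATAAA in 10.7% and in 8. These are letter matches only.

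Most genes of the list moved in each comparison, as did most genes of the cell. A gene is called here where the adjusted p of edgeR's quasi-likelihood test is under 0.05. In R4KO_1 against Ctrl, where 64.5% of all 14348 genes tested were called, 18 of 43 genes of the list rose and 17 fell (33% and 31.4% of all genes). In R4KO_2 against Ctrl 17 rose and 14 fell (34% and 32.2%, or 66.2% together). In KO_2 cells against R4KO_2 cells, 22 were higher and 16 lower with BX_795 (36.4% and 37.1%, or 73.6% together) and 23 were higher and 18 lower with H151 (35.7% and 37%, or 72.7% together). Of 40 genes tested in the second experiment, 15 rose and 14 fell in iR4 against Vehicle (37.1% and 34.8%, or 71.9% of 14000 genes). In H151_iR4 against iR4 8 rose and 23 fell (35.1% and 36.3%, or 71.4% together). The counts for iR4 and R4KO_2 are near the shares over all genes, and H151_iR4 had more lower calls than they give. Calls in either direction were also above the shares in R4KO_1 (81.4% of the list) and in KO_2 cells with BX_795 (88.4%) and H151 (95.3%). The list was chosen with earlier results of these data known, and the part of that choice in these counts was not tested. TGFB2, a TGF-beta ligand, had too few counts to be tested in any of the 6, and MMP9, SPARC and ITGB6 had too few in the second experiment.

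Changes of 2-fold or more were fewer. In R4KO_1, 7 genes rose and 4 fell by that much, where 7.57% and 2.55% of all genes did. R4KO_2 had 5 that rose and 2 that fell (8.21% and 3.15%). H151 in KO_2 cells gave 9 that rose and 9 that fell (5.35% and 9.94%), and BX_795 gave 10 and 6 (5.97% and 9.24%). With iR4, 6 rose and 1 fell (8.58% and 2.94%). In H151_iR4 against iR4 0 rose and 8 fell by that much (3.09% and 9.22%), and the largest rise there was 0.99 on the log2 scale, in LOX. The median log2 fold change of the genes tested was 0.17 in R4KO_1, 0.13 in R4KO_2, 0.19 with H151 and 0.24 with BX_795 in KO_2 cells, -0.02 with iR4 and -0.25 in H151_iR4 against iR4, and over all genes it lay between -0.01 and 0.02.

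**Figure D1:**
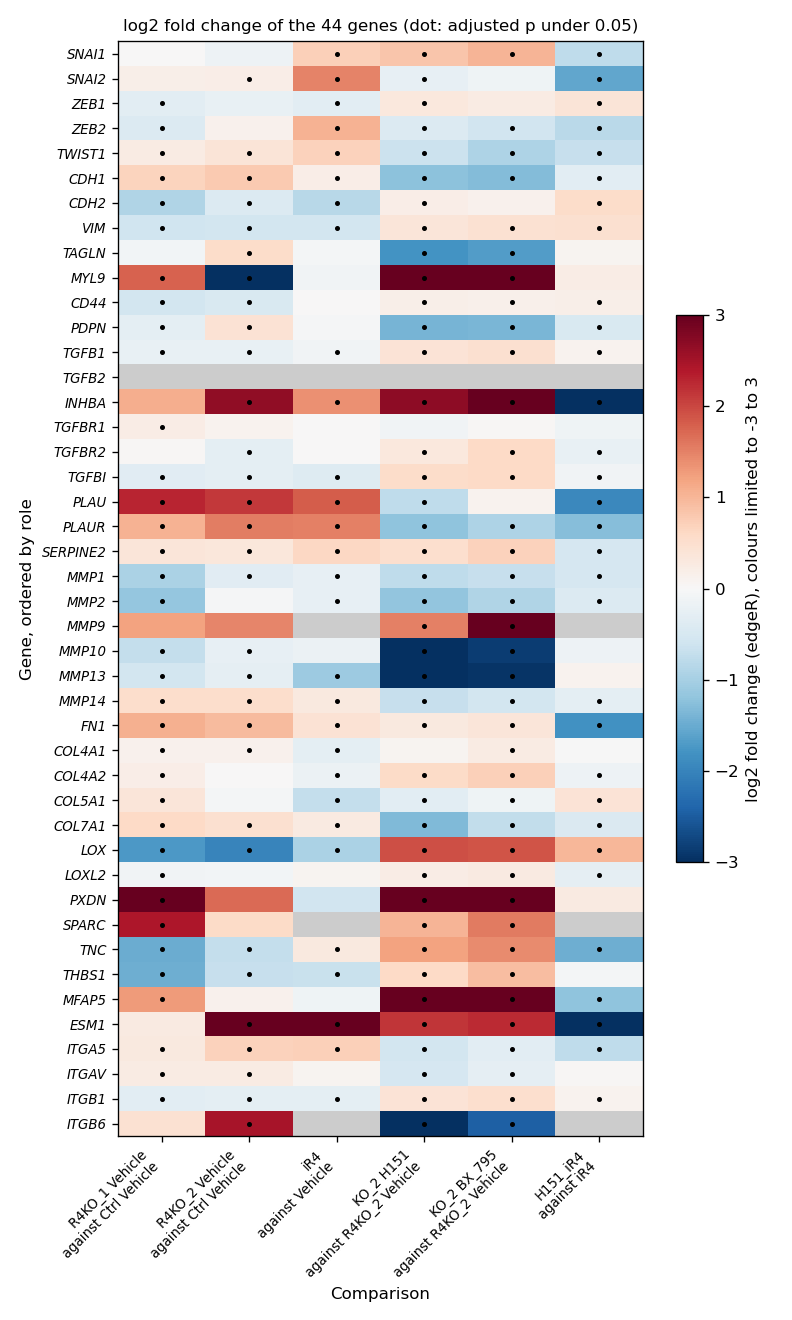
Fitted log2 fold change of the 44 genes (rows, by role) in the 6 main comparisons (columns), with red for higher and blue for lower in the group named first; colours stop at -3 and 3, a dot marks an edgeR adjusted p under 0.05, and grey marks genes not tested. PLAU and PLAUR are red in both knockouts and with iR4, and most rows of H151_iR4 against iR4 are blue, where 23 genes fell and 8 rose.

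Of the 5 transcription factors of the transition, 4 rose and 1 fell with iR4 (37.1% and 34.8% of all genes), while the largest change in either knockout was -0.40 on the log2 scale, in ZEB2 in R4KO_1. SNAI2 is a repressor of E-cadherin also found in basal squamous cells. It had 177, 172 and 184 CPM in iR4 libraries, against 63.9, 65.4 and 62.5 CPM in Vehicle libraries (log2 fold change 1.48 ± 0.04 SE, edgeR adjusted p = 1.8e-20). Every iR4 library lay far above every Vehicle library. With H151 added, SNAI2 had 59.7, 62.9 and 58.7 CPM in H151_iR4 libraries, all below the iR4 ones (log2 fold change -1.55 ± 0.04 SE, edgeR adjusted p = 8.9e-21). Against Vehicle, H151_iR4 had a log2 fold change of -0.07 ± 0.04 (edgeR adjusted p = 0.279), with overlapping libraries.

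ZEB2, a zinc finger repressor of E-cadherin, had 5.699, 4.75 and 6.99 CPM in iR4 libraries, against 2.85, 3.003 and 2.63 CPM in Vehicle libraries (log2 fold change 1.05 ± 0.15 SE, edgeR adjusted p = 8.7e-07). The groups did not overlap, although the iR4 libraries spread over more than 2 CPM. TWIST1, a basic helix-loop-helix factor of mesoderm, had 14.2, 14.4 and 14.2 CPM in iR4 libraries, against 9.199, 9.21 and 8.04 CPM in Vehicle libraries (log2 fold change 0.70 ± 0.09 SE, edgeR adjusted p = 1.6e-07). SNAI1, the close relative of SNAI2, had 7.37, 7.23 and 8.06 CPM in iR4 libraries, against 4.93, 4.38 and 4.62 CPM in Vehicle libraries (log2 fold change 0.71 ± 0.11 SE, edgeR adjusted p = 2.2e-06). ZEB1 ran the other way, with 6.56, 5.91 and 6.94 CPM in iR4 libraries against 8.21, 8.81 and 7.25 CPM in Vehicle libraries (log2 fold change -0.31 ± 0.11 SE, edgeR adjusted p = 0.0134). Its call was lost without iR4 replicate 2 (-0.26) or Vehicle replicate 2 (-0.25). In H151_iR4 against iR4, SNAI1, ZEB2 and TWIST1 fell, with log2 fold changes of -0.77, -0.80 and -0.69, and ZEB1 rose by 0.38. The comparisons with iR4 and against iR4 share the iR4 libraries. None of the 5 was called in H151_iR4 against Vehicle, where 8.71% of all genes were higher and 9.58% lower, and the log2 differences there ran from -0.07 to 0.25. At an unadjusted p under 0.05, or by DESeq2, 0 of the 5 passed as well.

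In the knockouts, SNAI2 had 64.9, 78.4 and 96.98 CPM in R4KO_1 libraries and 76.2, 80.3 and 87.9 CPM in R4KO_2 libraries, against 71.7, 69.5 and 73.1 CPM in Ctrl libraries. The R4KO_1 libraries straddled Ctrl and were not called (0.17 ± 0.09, edgeR adjusted p = 0.0861). R4KO_2 lay above it by a little (log2 fold change 0.20 ± 0.09 SE, edgeR adjusted p = 0.0461), and that call was lost without Ctrl replicate 1 (0.20), 2 (0.18) or 3 (0.22) and without R4KO_2 replicate 2 (0.21) or 3 (0.14). Without R4KO_1 replicate 1 the R4KO_1 value was 0.30 and called.

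TWIST1 had 11.5, 10.2 and 9.704 CPM in R4KO_1 libraries and 11.7, 11.1 and 11.7 CPM in R4KO_2 libraries, against 9.11, 9.07 and 8.38 CPM in Ctrl libraries. Both knockouts were higher, by log2 0.25 ± 0.10 (edgeR adjusted p = 0.0279) and 0.39 ± 0.10 (edgeR adjusted p = 0.0011). The R4KO_1 call was lost without R4KO_1 replicate 1 (0.18) or Ctrl replicate 3 (0.21). ZEB1 had 6.44, 5.99 and 5.12 CPM in R4KO_1 libraries and 5.91, 6.91 and 5.76 CPM in R4KO_2 libraries, against 7.05, 8.09 and 6.74 CPM in Ctrl libraries. The R4KO_1 value only just passed (log2 fold change -0.31 ± 0.13 SE, edgeR adjusted p = 0.0496) and was lost when 4 of the libraries were left out in turn: Ctrl replicates 1 (-0.33) and 2 (-0.23) and R4KO_1 replicates 2 (-0.33) and 3 (-0.22). ZEB2 also fell in R4KO_1 (-0.40 ± 0.15), with overlapping libraries and a call lost without R4KO_1 replicate 1 (-0.29) or 2 (-0.38) or Ctrl replicate 1 (-0.26). SNAI1 was not called in either knockout.

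In the drug-treated KO_2 cells TWIST1 was lower and SNAI1 higher. TWIST1 had 6.86, 6.17 and 5.41 CPM with BX_795 and 7.37, 7.47 and 7.65 CPM with H151, against 11.7, 11.1 and 11.7 CPM in R4KO_2 libraries. Both drug groups lay wholly below R4KO_2, at -0.93 ± 0.10 (edgeR adjusted p = 1.2e-08) and -0.64 ± 0.09 (edgeR adjusted p = 2.4e-06). SNAI1 had 7.83, 7.6 and 7.24 CPM with BX_795 and 6.64, 6.099 and 7.15 CPM with H151, against 3.47, 4.03 and 3.51 CPM in R4KO_2 libraries, which were all lower (log2 fold change 1.02 ± 0.13 SE, edgeR adjusted p = 2.3e-07 for BX_795). SNAI2 and ZEB1 moved by less: -0.13 ± 0.08 and 0.25 ± 0.13 with BX_795, neither called, and -0.25 ± 0.08 and 0.31 ± 0.13 with H151, both called. The SNAI2 call with H151 was lost without R4KO_2 replicate 3 (-0.19), and the ZEB1 call without KO_2 H151 replicate 2 (0.25) or R4KO_2 replicate 1 (0.27) or 3 (0.26). ZEB1 with BX_795 was called without KO_2 BX_795 replicate 3 (0.39) or R4KO_2 replicate 2 (0.34).

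CDH1 rose while CDH2 and VIM fell in each knockout and with iR4. CDH1 encodes E-cadherin, the junction protein that the transition removes. It had 53.4, 51.9 and 47.6 CPM in R4KO_1 libraries and 60.3, 52.3 and 52.2 CPM in R4KO_2 libraries, against 33.9, 31.4 and 31.9 CPM in Ctrl libraries. Both knockouts lay wholly above Ctrl, with log2 fold changes of 0.66 ± 0.07 (edgeR adjusted p = 1.4e-08) and 0.77 ± 0.07 (edgeR adjusted p = 9.5e-10). With iR4, CDH1 had 44.6, 44.1 and 44.1 CPM, against 38.4, 39.96 and 38.5 CPM in Vehicle libraries, a smaller rise without overlap (log2 fold change 0.19 ± 0.05 SE, edgeR adjusted p = 0.0016).

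CDH2, the N-cadherin gene of mesenchymal and neural cells, had 16.5, 17.6 and 18.6 CPM in R4KO_1 libraries and 25.7, 25.1 and 22.3 CPM in R4KO_2 libraries, against 32.3, 33.9 and 32.2 CPM in Ctrl libraries. It was lower in both knockouts, by -0.89 ± 0.07 (edgeR adjusted p = 1.1e-10) and -0.42 ± 0.06 (edgeR adjusted p = 4.2e-06). In iR4 libraries CDH2 had 24.7, 21.3 and 23.2 CPM, against 42.4, 41.3 and 40.01 CPM in Vehicle libraries (log2 fold change -0.83 ± 0.06 SE, edgeR adjusted p = 4.1e-12). No library of the knockouts or of iR4 reached its control. VIM, the intermediate filament protein vimentin, had 209.8, 209 and 213 CPM in R4KO_1 libraries and 224, 214 and 213 CPM in R4KO_2 libraries, against 335, 292 and 328 CPM in Ctrl libraries. The fall was about the same size in both, -0.59 ± 0.04 (edgeR adjusted p = 7.5e-11) and -0.55 ± 0.04 (edgeR adjusted p = 2e-10), and R4KO_2 and R4KO_1 differed by 0.04 ± 0.04 (edgeR adjusted p = 0.477). With iR4, VIM had 239, 233 and 232 CPM, against 337, 352 and 339 CPM in Vehicle libraries, again with no overlap (log2 fold change -0.54 ± 0.03 SE, edgeR adjusted p = 1.5e-13).

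**Figure D2:**
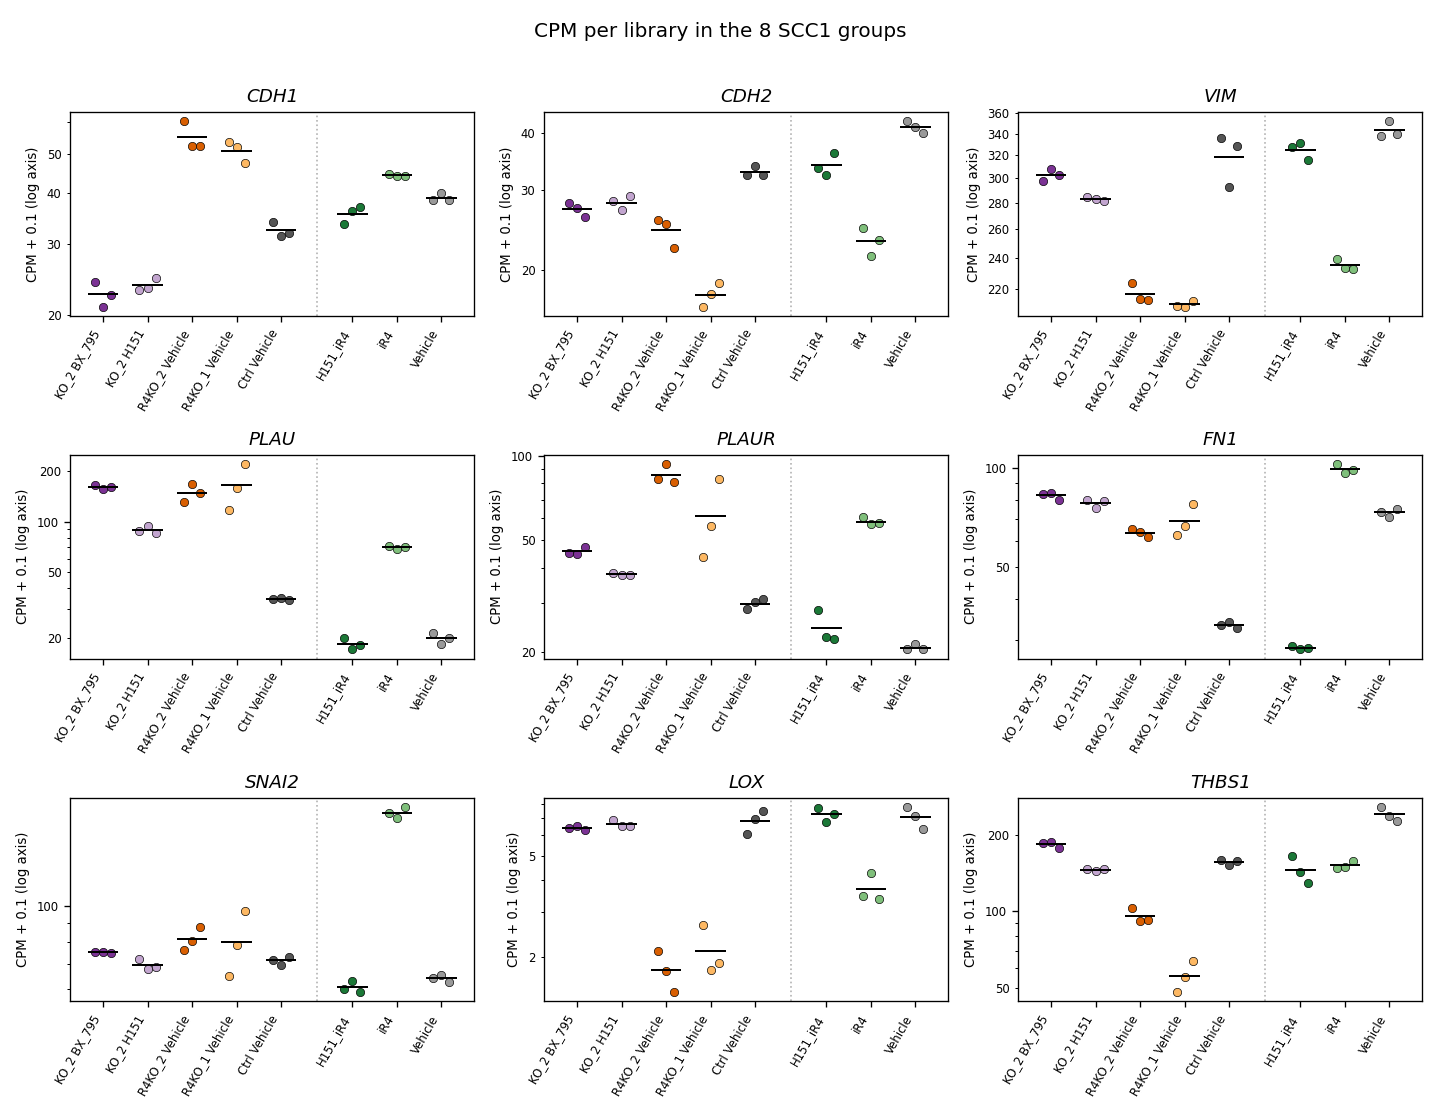
CPM of 9 genes in each SCC1 library (points, log axis, 0.1 added) with the group mean (bar); the dotted line parts the first experiment from the second, whose baselines were not compared. CDH1 is higher and CDH2, VIM and LOX lower in both knockouts and in iR4 than in their own controls, and SNAI2 stands apart in iR4 alone, at 172 to 184 CPM.

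Drug-treated KO_2 cells are set, throughout, against the same R4KO_2 libraries that were set against Ctrl. These cells went the other way for CDH1. It had 24.01, 20.9 and 22.4 CPM with BX_795 and 23.01, 23.2 and 24.6 CPM with H151, against 60.3, 52.3 and 52.2 CPM in R4KO_2 libraries (log2 fold change -1.31 ± 0.07 SE, edgeR adjusted p = 8.7e-14 for BX_795). All 6 drug libraries also lay below Ctrl, with log2 fold changes of -0.53 ± 0.07 for BX_795 and -0.46 ± 0.07 for H151 against Ctrl. VIM had 297, 307 and 302 CPM with BX_795 and 284, 283 and 281 CPM with H151, against 224, 214 and 213 CPM in R4KO_2 libraries, which were all lower (log2 fold change 0.46 ± 0.04 SE, edgeR adjusted p = 1.5e-09 for BX_795). CDH2 had 28, 27.2 and 26.1 CPM with BX_795 and 28.3, 26.9 and 28.9 CPM with H151, all above R4KO_2. The CDH2 rise was called with H151 (0.19 ± 0.06, edgeR adjusted p = 0.0092), though not without R4KO_2 replicate 3 (0.13). With BX_795 it was not called (0.14 ± 0.06, edgeR adjusted p = 0.05), but was without KO_2 BX_795 replicate 3 (0.17) or R4KO_2 replicate 1 (0.18). REXO4 transcript and depth moved with these groups, as given above, and their part in these differences was not tested.

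CDH1, CDH2 and VIM in H151_iR4 libraries also lay away from iR4. CDH1 had 33.5, 36.1 and 36.8 CPM in H151_iR4 libraries, against 44.6, 44.1 and 44.1 CPM in iR4 libraries (log2 fold change -0.31 ± 0.05 SE, edgeR adjusted p = 5.9e-06). CDH2 had 33.5, 32.3 and 36.04 CPM in H151_iR4 libraries (log2 fold change 0.56 ± 0.06 SE, edgeR adjusted p = 1.5e-08), above every iR4 library. VIM had 327, 331 and 316 CPM in H151_iR4 libraries (log2 fold change 0.47 ± 0.03 SE, edgeR adjusted p = 2.8e-12), also without overlap with iR4. Against Vehicle, H151_iR4 was lower in CDH2 (-0.28 ± 0.06, edgeR adjusted p = 0.0012), while CDH1 (-0.13 ± 0.05) and VIM (-0.07 ± 0.03) were not called.

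Among the contractile and surface genes, MYL9, a regulatory light chain of smooth muscle myosin, was at opposite ends in the knockouts. It had 3.75, 3.31 and 3.76 CPM in R4KO_1 libraries, against 1.24, 1.16 and 0.762 CPM in Ctrl libraries (log2 fold change 1.78 ± 0.23 SE, edgeR adjusted p = 6.2e-07). In R4KO_2 it had 3 counts over the group, against 54 counts in Ctrl, 20.1-fold lower (95% counting interval 6.53 to 101); that interval and the similar ones below cover counting error only. KO_2 cells had 3.03, 2.52 and 3.804 CPM with BX_795 and 3.08, 2.32 and 3.27 CPM with H151, with 232 and 206 counts over the groups, against the 3 counts of R4KO_2. R4KO_2 with vehicle was the only group of the 8 in which MYL9 was under 0.2 CPM in every library. TAGLN, the actin-binding protein transgelin, had 3.95, 4.37 and 3.73 CPM with BX_795 and 4.11, 3.45 and 3.499 CPM with H151, against 13.9, 13.1 and 10.7 CPM in R4KO_2 libraries (log2 fold change -1.67 ± 0.12 SE, edgeR adjusted p = 3.8e-11 for BX_795).

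PDPN, the membrane mucin podoplanin of invading squamous fronts, had 11.02, 10.97 and 12.4 CPM with BX_795 and 12.3, 10.3 and 11.5 CPM with H151, against 29.1, 30.9 and 28.6 CPM in R4KO_2 libraries. The drug groups lay far below R4KO_2 (log2 fold change -1.39 ± 0.07 SE, edgeR adjusted p = 9.2e-14 for H151). PDPN was higher in R4KO_2 than in Ctrl (0.42 ± 0.07) and lower in R4KO_1 (-0.29 ± 0.07). CD44, the hyaluronan receptor, was lower in both knockouts, by -0.55 ± 0.05 in R4KO_1 and -0.45 ± 0.05 in R4KO_2, and was not called with iR4 (0.01 ± 0.04). The difference between the iR4 and R4KO_1 effects on CD44 was itself called (0.57 ± 0.07, edgeR adjusted p = 1.8e-07).

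Of the TGF-beta genes, INHBA moved most. It encodes the subunit of activin A, a ligand of the TGF-beta family. It had 6.25, 5.46 and 5.05 CPM with BX_795 and 4.63, 4.45 and 3.58 CPM with H151 in KO_2 cells, against 0.777, 0.838 and 0.314 CPM in R4KO_2 libraries. Every drug library held several times more than any R4KO_2 library (log2 fold change 3.09 ± 0.22 SE, edgeR adjusted p = 3.9e-11 for BX_795). It had 1.04, 0.95 and 1.61 CPM in iR4 libraries, against 0.438, 0.407 and 0.546 CPM in Vehicle libraries (log2 fold change 1.37 ± 0.33 SE, edgeR adjusted p = 0.00075). H151_iR4 libraries had 0.066, 0.19 and 0 CPM, below every iR4 library (log2 fold change -3.62 ± 0.49 SE, edgeR adjusted p = 4.5e-07). INHBA was also higher in R4KO_2 than in Ctrl (2.66 ± 0.57), on 37 and 5 counts over the groups.

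TGFBI, a secreted TGF-beta target that binds integrins, had the highest level per kilobase of exon in both Ctrl and Vehicle. It had 1117, 1083 and 1062 CPM in R4KO_1 libraries and 1103, 1105 and 1128 CPM in R4KO_2 libraries, against 1369, 1422 and 1338 CPM in Ctrl libraries. The fall was -0.33 ± 0.03 in R4KO_1 and -0.30 ± 0.03 in R4KO_2. With iR4 it had 1540, 1555 and 1498 CPM, against 1992, 1967 and 2011 CPM in Vehicle libraries (-0.38 ± 0.03). This fall did not differ by test from that in R4KO_1 (difference -0.04 ± 0.04, edgeR adjusted p = 0.542) or in R4KO_2 (-0.08 ± 0.04, edgeR adjusted p = 0.2235). Drug-treated KO_2 cells had 1695, 1655 and 1729 CPM with BX_795 and 1676, 1643 and 1655 CPM with H151, above both R4KO_2 and Ctrl. TGFBR2, the ligand-binding receptor, was lower in R4KO_2 (-0.29 ± 0.04) and higher in KO_2 cells with BX_795 (0.59 ± 0.04) and H151 (0.32 ± 0.04). TGFBR1, the signalling receptor, moved by at most 0.22 on the log2 scale in the 6 comparisons. The ligand TGFB1 was called in all 6, with log2 fold changes of -0.22 to 0.49. Its knockout calls were lost without Ctrl replicate 2 (-0.12 in R4KO_1 and -0.13 in R4KO_2) and also without Ctrl replicate 1 (-0.22) or R4KO_1 replicate 1 (-0.15) or 2 (-0.17) in R4KO_1, and without R4KO_2 replicate 1 (-0.20) in R4KO_2. Its iR4 call was lost without iR4 replicate 3 (-0.08) or Vehicle replicate 1 (-0.10), and its H151_iR4 call without H151_iR4 replicate 1 (0.09) or iR4 replicate 3 (0.07).

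PLAU and PLAUR rose 2-fold or more in each knockout and with iR4. PLAU encodes urokinase, which turns plasminogen into plasmin at the cell surface, and PLAUR its receptor. PLAU had 118, 158 and 221 CPM in R4KO_1 libraries and 131, 166 and 147 CPM in R4KO_2 libraries, against 34.3, 34.8 and 33.9 CPM in Ctrl libraries. Every knockout library held over 3 times the level of any Ctrl library (log2 fold change 2.27 ± 0.15 SE, edgeR adjusted p = 1.1e-11 in R4KO_1 and 2.12 ± 0.15 in R4KO_2). The R4KO_1 libraries were themselves uneven, with replicate 3 highest. PLAU had 71.8, 68.8 and 70.1 CPM in iR4 libraries, against 21.5, 18.3 and 20.1 CPM in Vehicle libraries, with no overlap (log2 fold change 1.82 ± 0.06 SE, edgeR adjusted p = 6.7e-19).

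PLAUR had 43.6, 56.4 and 82.7 CPM in R4KO_1 libraries and 82.6, 93.7 and 81.1 CPM in R4KO_2 libraries, against 28.3, 30.04 and 30.7 CPM in Ctrl libraries. It was higher in both, by 1.04 ± 0.14 (edgeR adjusted p = 8.4e-07) and 1.54 ± 0.13 (edgeR adjusted p = 1.4e-09), and again R4KO_1 replicate 3 was the highest of its group. In iR4 libraries PLAUR had 60.5, 57 and 57.5 CPM, against 20.3, 21.2 and 20.4 CPM in Vehicle libraries (log2 fold change 1.501 ± 0.06 SE, edgeR adjusted p = 2.3e-16). R4KO_1 replicates 1 and 3 differed more than any other pair of replicates over all genes, with a chi-square per degree of freedom of 10.4, against 1.66 to 4.89 in the other pairs.

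PLAU and PLAUR were both lower in H151_iR4 than in iR4. PLAU had 19.99, 17.1 and 18.2 CPM in H151_iR4 libraries (log2 fold change -1.93 ± 0.06 SE, edgeR adjusted p = 3.6e-19), below every iR4 library. PLAUR had 28.2, 22.5 and 22.1 CPM in H151_iR4 libraries (log2 fold change -1.27 ± 0.06 SE, edgeR adjusted p = 4.8e-15), also without overlap with iR4. Against Vehicle, H151_iR4 was still higher in PLAUR (0.23 ± 0.07, edgeR adjusted p = 0.0329) and not called in PLAU (-0.11 ± 0.07, edgeR adjusted p = 0.291).

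In KO_2 cells the drugs parted on PLAU. It had 164, 156 and 162 CPM with BX_795 and 87.5, 93.6 and 85.2 CPM with H151, against 131, 166 and 147 CPM in R4KO_2 libraries. The BX_795 libraries fell within the R4KO_2 range (0.10 ± 0.13, edgeR adjusted p = 0.48), the H151 libraries below it (-0.76 ± 0.13, edgeR adjusted p = 1.9e-05), and BX_795 lay above H151 (log2 fold change 0.86 ± 0.13 SE, edgeR adjusted p = 0.00012). PLAUR had 45.03, 44.8 and 47.2 CPM with BX_795 and 38.3, 37.7 and 37.5 CPM with H151, both wholly below R4KO_2 and both above Ctrl (0.62 ± 0.14 and 0.34 ± 0.14 on the log2 scale). SERPINE2, a serpin that inhibits urokinase and thrombin, was higher in R4KO_1 (0.37 ± 0.08), R4KO_2 (0.35 ± 0.08) and iR4 (0.61 ± 0.05). It was higher again in KO_2 cells with BX_795 (0.70 ± 0.07) and H151 (0.51 ± 0.07) than in R4KO_2.

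MMP1 and MMP13 fell while the membrane-bound MMP14 rose in both knockouts and with iR4. MMP14 activates pro-MMP2 and cuts fibrillar collagen at the cell surface. It had 283, 289.7 and 298 CPM in R4KO_1 libraries and 289.7, 298 and 288 CPM in R4KO_2 libraries, against 196, 209.9 and 202 CPM in Ctrl libraries, a rise of 0.53 ± 0.04 and 0.54 ± 0.04 without overlap. With iR4 it had 245, 246 and 231 CPM, against 191, 197 and 199.6 CPM in Vehicle libraries (log2 fold change 0.30 ± 0.03 SE, edgeR adjusted p = 2.6e-08).

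The stromelysin MMP10 (102770503 to 102780628), the collagenase MMP1 (102789920 to 102798160) and the collagenase MMP13 (102942995 to 102955734) lie near each other on the minus strand of chromosome 11 in build hg38. MMP13 had 85.6, 89.2 and 90.7 CPM in R4KO_1 libraries and 100.4, 111 and 114 CPM in R4KO_2 libraries, against 126, 118 and 148 CPM in Ctrl libraries, a fall of -0.56 ± 0.07 and -0.26 ± 0.07. With BX_795 and H151, KO_2 cells had 14.1, 15.2 and 13.9 CPM and 11.3, 13.4 and 12.6 CPM, several times under any R4KO_2 library (log2 fold change -3.14 ± 0.08 SE, edgeR adjusted p = 2.2e-18 for H151). MMP10 likewise had 2.74, 2.66 and 3.22 CPM with BX_795 and 2.23, 2.17 and 2.23 CPM with H151, against 20.5, 20.2 and 20.9 CPM in R4KO_2 libraries (log2 fold change -3.23 ± 0.14 SE, edgeR adjusted p = 6.1e-15 for H151).

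MMP10 had 12.03, 14.4 and 18.3 CPM in R4KO_1 libraries (-0.72 ± 0.10 against Ctrl), and its small fall in R4KO_2 (-0.25 ± 0.10) was lost without Ctrl replicate 1 (-0.25) or 3 (-0.18) or R4KO_2 replicate 1 (-0.26), 2 (-0.24) or 3 (-0.27). In the second experiment MMP13 had 34.96, 29.7 and 30.6 CPM in iR4 libraries, against 62.4, 72.7 and 67.7 CPM in Vehicle libraries, the only gene of the list that fell 2-fold or more with iR4 (log2 fold change -1.09 ± 0.06 SE, edgeR adjusted p = 6.7e-14). MMP13 had 32.2, 36.6 and 32.3 CPM in H151_iR4 libraries, which overlapped iR4 (0.09 ± 0.07, edgeR adjusted p = 0.227). Without iR4 replicate 1 the value was 0.17 and called.

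MMP1 was lower in all 6 main comparisons, from -0.95 ± 0.07 in R4KO_1 to -0.23 ± 0.07 with iR4. WTAPP1 on the other strand overlaps MMP1 and MMP10, so their reads may be shared. MMP2, a gelatinase, had 17.8, 15.8 and 15.97 CPM in R4KO_1 libraries, against 36.6, 39.4 and 35.7 CPM in Ctrl libraries (log2 fold change -1.16 ± 0.07 SE, edgeR adjusted p = 3.6e-12). R4KO_2 libraries had 35.8, 34.9 and 37.1 CPM, overlapping Ctrl (-0.04 ± 0.06), and R4KO_2 differed from R4KO_1 by 1.12 ± 0.07 (edgeR adjusted p = 1.4e-10). KO_2 cells had 16.2, 16.1 and 15.7 CPM with H151, below every R4KO_2 library (log2 fold change -1.18 ± 0.07 SE, edgeR adjusted p = 5.7e-13). MMP9, the other gelatinase, had 4.6, 4.08 and 5.01 CPM in KO_2 BX_795 libraries, against 0.857, 1.04 and 0.577 CPM in KO_2 H151 libraries (log2 fold change 2.49 ± 0.20 SE, edgeR adjusted p = 3.5e-08) and 0.415, 0.314 and 0.105 CPM in R4KO_2 libraries. It was the only gene of the list called at 2-fold or more between the drugs (0.453% of all genes were so much higher with BX_795).

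**Figure D3:**
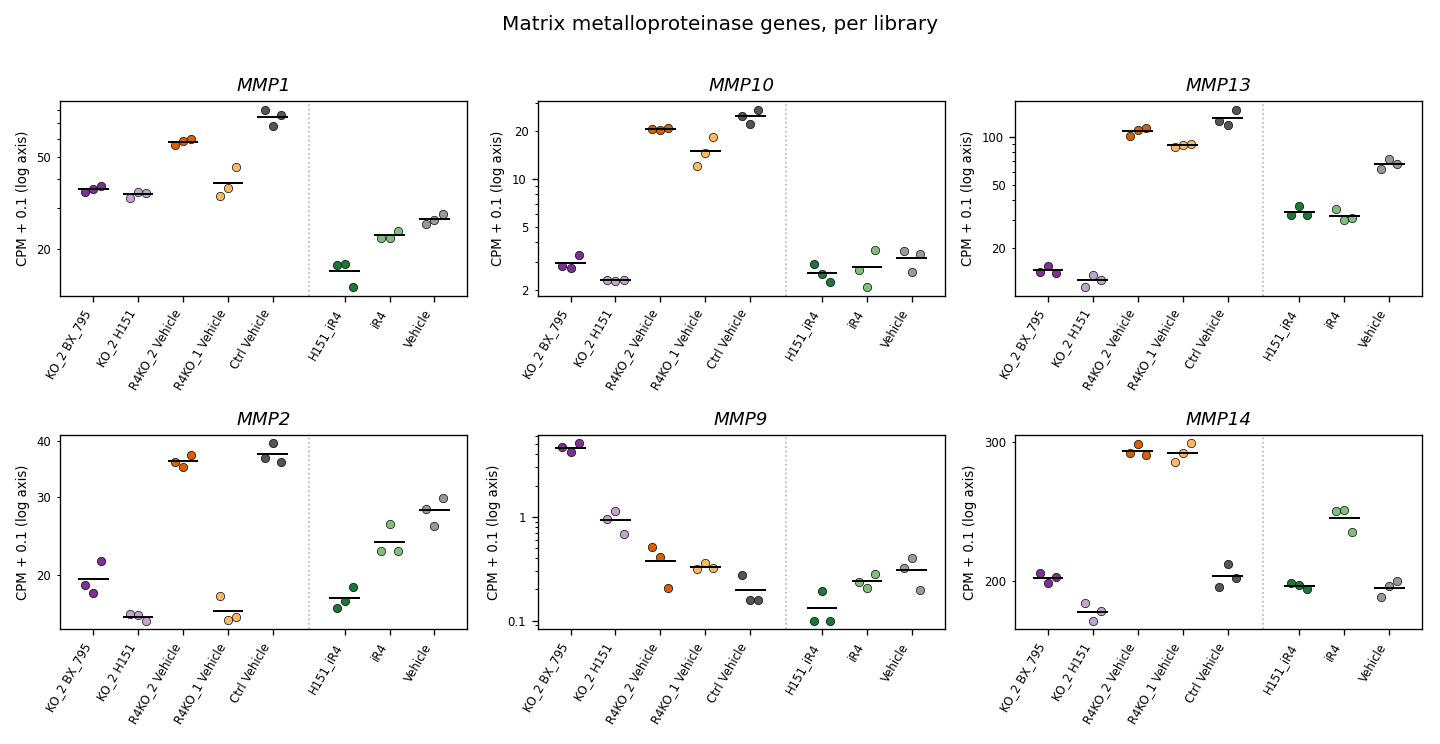
CPM of 6 matrix metalloproteinase genes in each SCC1 library (points, log axis, 0.1 added) with the group mean (bar); the dotted line parts the 2 experiments. MMP10 and MMP13 are lowest, within the first experiment, in the 6 drug-treated KO_2 libraries, MMP9 is above 4 CPM only with BX_795, and MMP14 is higher in R4KO_2, R4KO_1 and iR4 than in Ctrl and Vehicle.

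Fibronectin and anchoring collagen rose in the knockouts while the crosslinker LOX and the matricellular THBS1 fell. FN1 encodes fibronectin, the adhesive matrix protein. It had 62.4, 66.4 and 77.7 CPM in R4KO_1 libraries and 65.05, 63.6 and 61.7 CPM in R4KO_2 libraries, against 33.2, 33.8 and 32.4 CPM in Ctrl libraries. All knockout libraries lay above all Ctrl libraries, by 1.06 ± 0.06 (edgeR adjusted p = 3.4e-12) and 0.95 ± 0.06 (edgeR adjusted p = 1.9e-11). With iR4 FN1 had 103, 96.3 and 98.6 CPM, against 73.5, 70.9 and 75.1 CPM in Vehicle libraries (log2 fold change 0.44 ± 0.04 SE, edgeR adjusted p = 1.9e-10).

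FN1 fell below both iR4 and Vehicle when H151 was added to iR4. H151_iR4 libraries had 28.6, 27.9 and 28.1 CPM (log2 fold change -1.81 ± 0.04 SE, edgeR adjusted p = 4.7e-21 against iR4 and -1.37 ± 0.05 against Vehicle). In KO_2 cells FN1 had 83.5, 84.1 and 79.96 CPM with BX_795 and 80.1, 75.5 and 79.05 CPM with H151, slightly above every R4KO_2 library (0.36 ± 0.06 and 0.28 ± 0.06). The difference between the H151 effects in iR4 and in KO_2 cells was -2.10 ± 0.08 (edgeR adjusted p = 8.2e-19).

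LOX, lysyl oxidase, crosslinks collagen and elastin. It had 2.59, 1.68 and 1.799 CPM in R4KO_1 libraries and 2.02, 1.68 and 1.36 CPM in R4KO_2 libraries, against 5.997, 6.87 and 7.38 CPM in Ctrl libraries. Both knockouts held less than any Ctrl library (log2 fold change -1.73 ± 0.15 SE, edgeR adjusted p = 1.9e-09 in R4KO_1 and -1.99 ± 0.16 in R4KO_2). KO_2 cells had 6.33, 6.41 and 6.22 CPM with BX_795 and 6.77, 6.43 and 6.46 CPM with H151, above every R4KO_2 library (log2 fold change 1.94 ± 0.15 SE, edgeR adjusted p = 1.5e-10 for H151), and differed from Ctrl by -0.10 ± 0.12 and -0.05 ± 0.12, neither called. LOX had 3.39, 4.17 and 3.27 CPM in iR4 libraries, against 7.67, 7.02 and 6.25 CPM in Vehicle libraries (log2 fold change -0.95 ± 0.13 SE, edgeR adjusted p = 2.4e-07). H151_iR4 libraries had 7.59, 6.69 and 7.18 CPM, all above iR4 (log2 fold change 0.99 ± 0.13 SE, edgeR adjusted p = 1.6e-07). LOXL2, a related amine oxidase, moved by at most 0.27 on the log2 scale in the 6 comparisons.

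THBS1, thrombospondin-1, had 48.1, 55.3 and 63.9 CPM in R4KO_1 libraries, against 159, 151.4 and 157 CPM in Ctrl libraries (log2 fold change -1.47 ± 0.07 SE, edgeR adjusted p = 3.7e-14). In R4KO_2 the fall was smaller, to 103, 91.6 and 92.5 CPM (-0.69 ± 0.06), and R4KO_2 lay above R4KO_1 by 0.78 ± 0.07 (edgeR adjusted p = 1.9e-08). With iR4 it had 148, 149 and 157 CPM, against 257, 237 and 226 CPM in Vehicle libraries (log2 fold change -0.66 ± 0.06 SE, edgeR adjusted p = 8.7e-11), and H151_iR4 did not differ from iR4 by the test (-0.06 ± 0.06), though it did without H151_iR4 replicate 1 (-0.15). TNC, tenascin-C of invasive fronts, had 6.702, 5.93 and 7.69 CPM in R4KO_1 libraries, against 20.9, 20.9 and 16.1 CPM in Ctrl libraries (log2 fold change -1.500 ± 0.11 SE, edgeR adjusted p = 1.9e-10). KO_2 cells had 30.4, 30.9 and 33.1 CPM with BX_795 and 27.2, 27.2 and 26.2 CPM with H151, against 12.4, 12.5 and 9.75 CPM in R4KO_2 libraries (log2 fold change 1.43 ± 0.09 SE, edgeR adjusted p = 8.3e-12 for BX_795). In the second experiment TNC had 14.4, 13.3 and 13.1 CPM in H151_iR4 libraries, against 34.9, 35.99 and 41.9 CPM in iR4 libraries (log2 fold change -1.47 ± 0.07 SE, edgeR adjusted p = 4.1e-15). TNC therefore stood well above R4KO_2 with H151 in KO_2 cells and well below iR4 with H151 in iR4 cells.

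Among the 4 collagens of the list, COL7A1 fell most with the drugs in KO_2 cells. COL7A1, the anchoring fibril collagen of the basement membrane zone, had 481, 493 and 520.1 CPM in KO_2 H151 libraries, against 1135, 1295 and 1250 CPM in R4KO_2 libraries (log2 fold change -1.32 ± 0.06 SE, edgeR adjusted p = 7.3e-15). KO_2 cells with BX_795 had 771, 704 and 762 CPM of COL7A1, a smaller difference from R4KO_2 (-0.74 ± 0.06). They lay above those with H151 by 0.58 ± 0.06 (edgeR adjusted p = 6e-07). COL7A1 was higher in both knockouts (0.61 ± 0.06 and 0.49 ± 0.06) and with iR4 (0.27 ± 0.05). COL5A1, a fibrillar collagen, was higher in R4KO_1 (0.36 ± 0.03) and lower with iR4 (-0.71 ± 0.03), and R4KO_2 was not called (-0.06 ± 0.03). The basement membrane pair COL4A1 and COL4A2 had log2 fold changes of 0.13 and 0.20 in R4KO_1, 0.14 and 0.02 in R4KO_2, and -0.28 and -0.17 with iR4. With H151 in KO_2 cells they parted, COL4A2 rising by 0.56 ± 0.04 and COL4A1 not called (0.08 ± 0.04), although it was called with all 24 libraries (0.091) or only the 2 groups (0.087) in the fit. The COL4A1 call in R4KO_1 was lost with no filter (0.121) or only the 2 groups in the fit (0.123). They share the 126 bases printed above between their starts, and the genes overlap in GENCODE.

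Some genes at low level were far apart between the knockouts. PXDN encodes peroxidasin, a haem peroxidase that crosslinks collagen IV. It had 8.81, 7.25 and 8.07 CPM in R4KO_1 libraries and 2 counts in all in Ctrl, 207-fold higher (95% counting interval 56.9 to 1711). R4KO_2 had 8 counts over the group, 3.58-fold higher (95% counting interval 0.714 to 34.6), and was not called (edgeR adjusted p = 0.0999), but was called without R4KO_2 replicate 1 (2.08). KO_2 cells had 12.2, 11.8 and 13.5 CPM with BX_795 and 11.1, 11.4 and 10.04 CPM with H151, against 0.0518, 0.262 and 0.105 CPM in R4KO_2 libraries (log2 fold change 6.41 ± 0.23 SE, edgeR adjusted p = 3.2e-16 for BX_795). PXDN was thus near 0 in R4KO_2 and Ctrl, and between 7.25 and 13.5 CPM in the R4KO_1 and drug-treated KO_2 libraries.

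ESM1 encodes endocan, a secreted proteoglycan best known from endothelium. It had 2.12, 1.99 and 1.73 CPM in R4KO_2 libraries, with 112 counts over the group against 3 in Ctrl, 33.4-fold higher (95% counting interval 11.1 to 164). R4KO_1 had 4 counts, 1.22-fold higher (95% counting interval 0.206 to 8.302). KO_2 cells had 8.796, 10.2 and 8.93 CPM with BX_795 and 8.95, 9.03 and 8.305 CPM with H151, all above R4KO_2 (log2 fold change 2.15 ± 0.15 SE, edgeR adjusted p = 2e-11 for H151). It had 1.49, 1.21 and 1.75 CPM in iR4 libraries, against 0.274, 0 and 0.0993 CPM in Vehicle libraries (log2 fold change 3.57 ± 0.48 SE, edgeR adjusted p = 3.2e-07). H151_iR4 libraries had 0.132, 0.237 and 0 CPM, below every iR4 library (log2 fold change -3.46 ± 0.48 SE, edgeR adjusted p = 6.1e-07). The endothelial markers were all under 1 CPM in every group.

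MFAP5, a glycoprotein of elastic microfibrils, had 3.38, 4.2 and 3.76 CPM in R4KO_1 libraries, against 1.24, 1.73 and 1.699 CPM in Ctrl libraries (log2 fold change 1.29 ± 0.17 SE, edgeR adjusted p = 6.1e-07). It had 17.6, 16.8 and 18.4 CPM with BX_795 and 13.9, 15.5 and 14.3 CPM with H151 in KO_2 cells, against 1.87, 1.41 and 1.78 CPM in R4KO_2 libraries (log2 fold change 3.36 ± 0.12 SE, edgeR adjusted p = 3e-16 for BX_795). The drug libraries lay above every other library of the experiment. In the second experiment it had 3.69, 3.32 and 4.13 CPM in H151_iR4 libraries, against 9.001, 8.07 and 8.42 CPM in iR4 libraries (log2 fold change -1.20 ± 0.12 SE, edgeR adjusted p = 1.1e-09). SPARC, a collagen-binding matricellular protein, had 1.21, 2.1 and 1.47 CPM in R4KO_1 libraries, against 0.647, 0.116 and 0.117 CPM in Ctrl libraries, where replicate 1 stood apart (log2 fold change 2.44 ± 0.40 SE, edgeR adjusted p = 1.4e-05). SPARC had 1.09, 1.47 and 1.39 CPM with BX_795, against 0.415, 0.524 and 0.367 CPM in R4KO_2 libraries (log2 fold change 1.56 ± 0.35 SE, edgeR adjusted p = 0.00041). The smaller SPARC rise with H151 (1.01 ± 0.38) was lost without KO_2 H151 replicate 1 (0.97) or R4KO_2 replicate 1 (0.98) or 3 (0.91), and without Ctrl replicate 1 SPARC was called in R4KO_2 too (1.86).

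**Figure D4:**
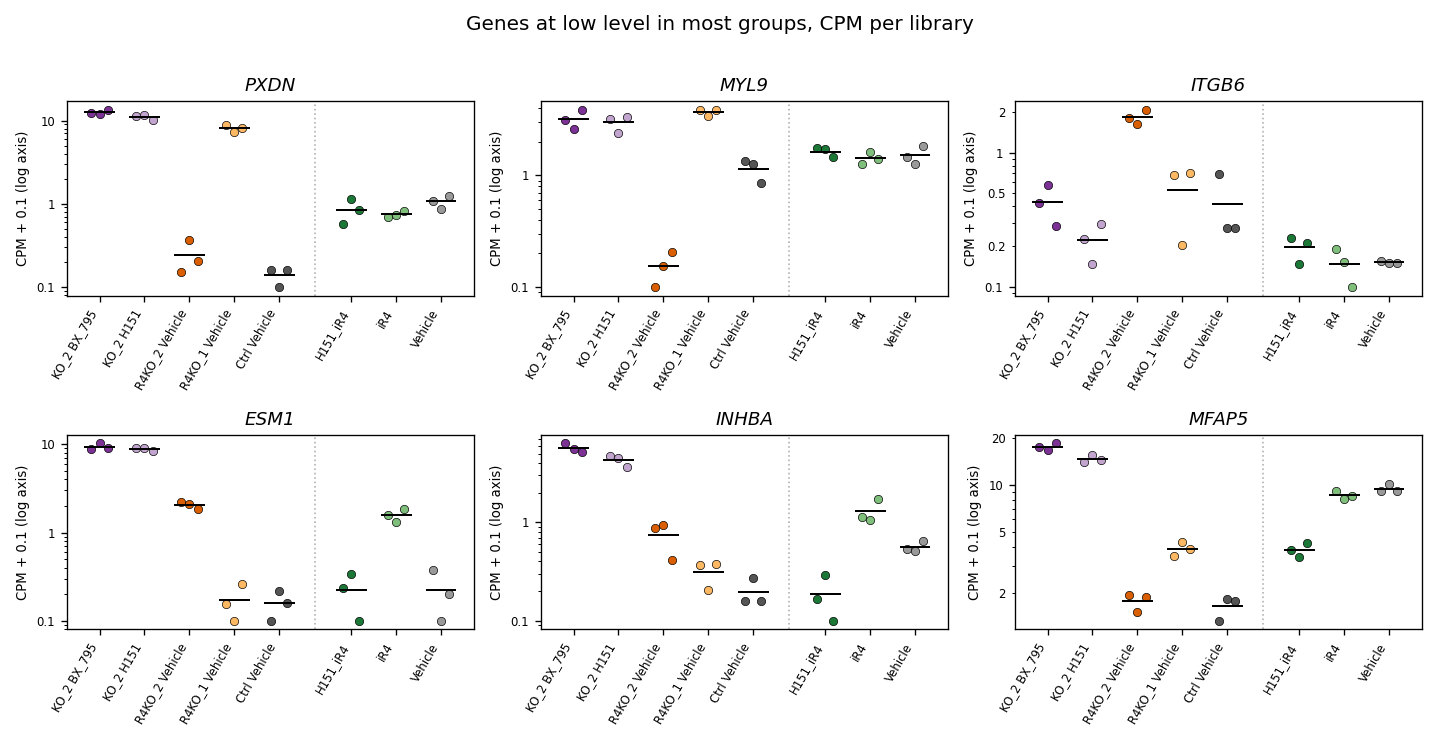
CPM of 6 genes in each SCC1 library (points, log axis, 0.1 added) with the group mean (bar); the dotted line parts the 2 experiments. PXDN and MYL9 are near 0 in R4KO_2 but not in R4KO_1 or in the drug-treated KO_2 libraries, ITGB6 reaches 1.52 to 1.99 CPM in R4KO_2 alone, and INHBA, MFAP5 and ESM1 are highest in the 6 drug-treated KO_2 libraries.

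Among the integrins, ITGA5, the fibronectin receptor chain, was higher in R4KO_1 (0.30 ± 0.07), R4KO_2 (0.70 ± 0.07) and iR4 (0.71 ± 0.03), and lower in H151_iR4 than in iR4 (-0.77 ± 0.03). Its partner ITGB1, the beta chain shared by most collagen, laminin and fibronectin receptors, was lower in R4KO_1 (-0.32 ± 0.03), R4KO_2 (-0.29 ± 0.03) and iR4 (-0.29 ± 0.03). ITGAV, the alpha chain of the vitronectin and TGF-beta activating integrins, was higher in both knockouts (0.24 ± 0.04 and 0.24 ± 0.04) and not called with iR4 (0.08 ± 0.04), but was without iR4 replicate 2 (0.11) or with upper-quartile factors (0.118). ITGB6, whose pairing with ITGAV activates latent TGF-beta on epithelium, had 1.71, 1.52 and 1.99 CPM in R4KO_2 libraries, against 0.588, 0.173 and 0.176 CPM in Ctrl libraries (log2 fold change 2.47 ± 0.41 SE, edgeR adjusted p = 1.9e-05). KO_2 cells had 0.323, 0.475 and 0.183 CPM with BX_795 and 0.129, 0.0473 and 0.192 CPM with H151, all below R4KO_2 (log2 fold change -2.46 ± 0.37 SE, edgeR adjusted p = 4.3e-06 for BX_795). LUM and COL3A1, fibroblast markers, were, within the first experiment, also highest in R4KO_2, at 5.44 to 5.76 and 4.82 to 6.71 CPM, against 0.293 to 0.578 and 1.82 to 2.41 CPM in Ctrl. All 3 fibroblast markers tested in this experiment were called higher in R4KO_2 than in Ctrl. COL1A1, the most abundant of them, was not highest in R4KO_2. It had 44.95 to 46.8 CPM with BX_795 and 36.6 to 38.6 CPM with H151, against 26.9 to 30.1 CPM in R4KO_2. LUM was at 0.237 to 0.475 CPM with BX_795 and 0.171 to 0.756 CPM with H151, and COL3A1 at 0.19 to 0.329 and 0.129 to 0.284 CPM. The part of these differences in the ITGB6, MYL9 and ESM1 values was not tested.

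Set directly against R4KO_1, R4KO_2 had 15 genes of the list higher (15.1% of all genes) and 7 lower (16.6%). The 4 that were 2-fold or more higher (0.976% of all genes) were INHBA (1.57 ± 0.46), MMP2 (1.12 ± 0.07), ESM1 (4.67 ± 0.42) and ITGB6 (2.02 ± 0.38). The 4 that were as much lower (1.3% of all genes) were MYL9 (3 against 203 counts, 69.02-fold lower (95% counting interval 23.3 to 338)), PXDN (-5.79 ± 0.25), SPARC (-1.86 ± 0.35) and MFAP5 (-1.16 ± 0.16). PLAU, FN1, CDH1 and VIM were not called between the knockouts, with differences of -0.16 ± 0.13, -0.11 ± 0.06, 0.11 ± 0.06 and 0.04 ± 0.04. BX_795 against H151 in KO_2 cells called 13 genes higher and 0 lower (5.67% and 3.99% of all genes; at an unadjusted p under 0.05 1 was lower, and by DESeq2 0), among the 13 PLAU, COL7A1, TGFBR2, THBS1 and MMP9. With only those 2 groups in the fit, 20 were higher and 1 lower, and without KO_2 BX_795 replicate 1, 1 was lower. Set against Ctrl, KO_2 cells had 22 genes higher and 13 lower with BX_795 (27.7% and 28% of all genes) and 19 higher and 15 lower with H151 (26% and 26.9%). Of the 13 matrix genes, 11 were higher and 2 lower with BX_795 than in R4KO_2, and 10 were higher and 2 lower with H151. Of the 9 proteases and regulators, 2 were higher and 6 lower with BX_795, and 2 were higher and 7 lower with H151. Of all genes, 36.4% were higher and 37.1% lower with BX_795 than in R4KO_2, and 35.7% and 37% with H151.

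The iR4 effect was set beside each knockout effect, which have separate controls. Of 40 genes tested in both, 21 were called in the same direction with iR4 and in R4KO_2, 12 higher and 9 lower, where 55.2% of all genes were, and 20 with iR4 and in R4KO_1, 9 higher and 11 lower, where 49% were. Those counts are near the shares over all genes. Called higher with iR4 and in R4KO_2 were SNAI2, TWIST1, CDH1, INHBA, PLAU, PLAUR, SERPINE2, MMP14, FN1, COL7A1, ESM1 and ITGA5, and called lower were CDH2, VIM, TGFB1, TGFBI, MMP1, MMP13, LOX, THBS1 and ITGB1. With R4KO_1 in place of R4KO_2, SNAI2, INHBA and ESM1 were not among the higher, and ZEB1 and MMP2 were among the lower. COL4A1 and TNC were called in opposite directions with iR4 and in R4KO_2 (1.44% of all genes were), and ZEB2, COL4A1, COL4A2, COL5A1 and TNC with iR4 and in R4KO_1 (3.89%). The effects themselves differed by test in 19 of 43 genes for R4KO_2 (20.3% of all genes) and 27 of 43 for R4KO_1 (35%). SNAI2 was among them, with an iR4 effect above that in R4KO_2 by 1.28 ± 0.11 (edgeR adjusted p = 8.3e-10), and CDH1, with one below it by -0.59 ± 0.08 (edgeR adjusted p = 7.3e-06). The PLAU effect did not differ by test from that in R4KO_2 (-0.30 ± 0.20) or in R4KO_1 (-0.45 ± 0.20).

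The H151 effects on the list differed between iR4 cells and KO_2 cells. Of 40 genes tested in both, 31 were called in both, 19 in the same direction (48.3% of all genes were) and 12 in opposite directions (7.61%). The 12 were SNAI1, INHBA, TGFBR2, TGFBI, SERPINE2, FN1, COL4A2, LOXL2, TNC, MFAP5 and ESM1, lower in H151_iR4 than in iR4 and higher in KO_2 H151 than in R4KO_2, and COL5A1, the other way round. The TGFBI call in iR4 cells was lost without H151_iR4 replicate 2 (-0.08) or 3 (-0.07) or iR4 replicate 2 (-0.08). The difference between the effects was called in 33 of 43 genes (50.7% of all genes). The 7 higher in both settings were ZEB1, CDH2, VIM, CD44, TGFB1, LOX and ITGB1, and the 12 lower in both were SNAI2, ZEB2, TWIST1, CDH1, PDPN, PLAU, PLAUR, MMP1, MMP2, MMP14, COL7A1 and ITGA5. REXO4 was higher with H151 in both settings, at 91.5 ± 2.45 CPM in H151_iR4 against 61.7 ± 3.38 CPM in iR4 and at 17.9 ± 1.502 CPM in KO_2 H151 against 6.26 ± 1.16 CPM in R4KO_2 (SD, n = 3). The KO_2 H151 libraries were also deeper than the R4KO_2 ones, and the part of either in the difference was not tested. With no KO_2 group given vehicle, a culture difference in the KO_2 setting cannot be told apart from the drug effect.

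**Figure D5:**
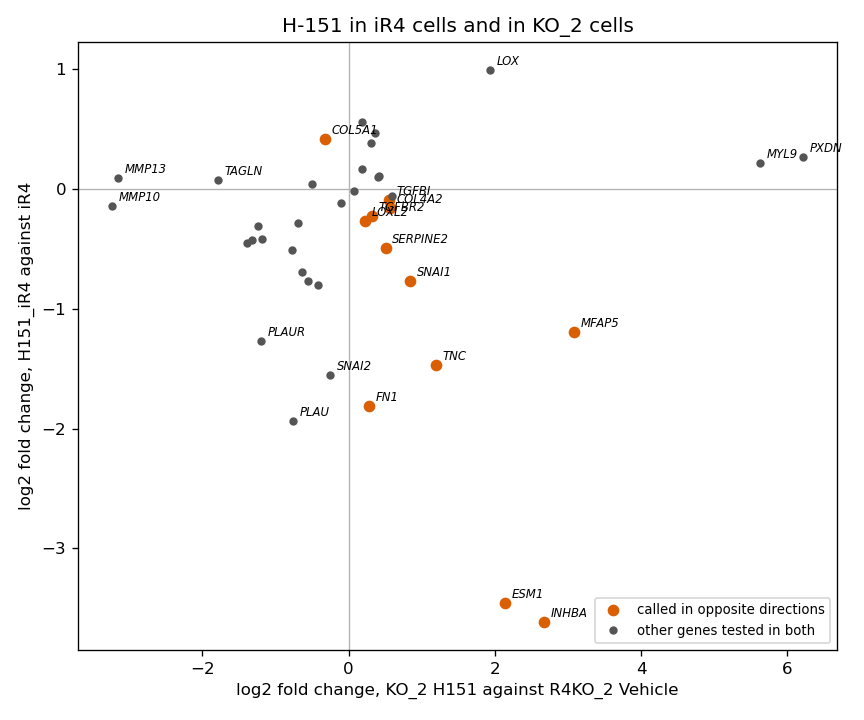
Fitted log2 fold change in H151_iR4 against iR4 (vertical) and in KO_2 H151 against R4KO_2 Vehicle (horizontal), 1 point per gene tested in both; orange marks the 12 genes called in opposite directions. INHBA, ESM1, MFAP5, TNC and FN1 lie in the lower right, LOX in the upper right, and PLAU, PLAUR and SNAI2 in the lower left.

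Set against Vehicle rather than iR4, H151_iR4 cells had 3 genes higher (CD44, PLAUR and ITGAV) and 18 lower (8.71% and 9.58% of all genes). The 4 that were 2-fold or more lower (0.557% of all genes) were INHBA (-2.24 ± 0.62), FN1 (-1.37 ± 0.05), TNC (-1.18 ± 0.08) and MFAP5 (-1.33 ± 0.11). Of the 13 matrix genes, 12 were tested, and 9 of these were lower and 0 higher by edgeR, as by DESeq2 and at an unadjusted p under 0.05 (0 higher). Without Vehicle replicate 1 or 2, 1 gene was higher rather than 3.

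Wider gene lists gave the setting. Of 32 genes of epithelial junctions and epithelial transcription factors, 29 were tested in the first experiment. In KO_2 cells 6 rose and 22 fell with BX_795 and 6 rose and 22 fell with H151. DSG3, a desmosomal cadherin, was among those that fell. It had 20.2 ± 1.98 CPM in KO_2 BX_795 and 26.6 ± 0.349 CPM in KO_2 H151 libraries, against 81.5 ± 4.81 CPM in R4KO_2 libraries (SD, n = 3). Of those that rose, CLDN1 had the lowest p with BX_795 (log2 fold change 3.002, edgeR adjusted p = 3.5e-11). ESRP2 had the lowest p of the risers with H151 (log2 fold change 0.861, edgeR adjusted p = 1.2e-10). R4KO_1 had 12 higher and 9 lower (33% and 31.4% of all genes), and R4KO_2 14 higher and 7 lower (34% and 32.2%). With iR4 17 of 30 rose and 7 fell (37.1% and 34.8% of all genes). KLF4, an epithelial zinc finger factor, was among those that rose, at 94.1 ± 5.95 CPM in iR4 against 23.6 ± 1.34 CPM in Vehicle. In H151_iR4 7 were higher and 15 lower than in iR4 (35.1% and 36.3% of all genes). TP63, the basal squamous factor, belongs to the list of 8 squamous markers and not to this one. It had 87.1 ± 0.856 CPM with BX_795 and 83.5 ± 2.75 CPM with H151 in KO_2 cells, against 256 ± 19.5 CPM in R4KO_2 libraries. Of those 8 markers, 2 were higher and 5 lower with BX_795 than in R4KO_2 (36.4% and 37.1% of all genes), and 1 was higher and 7 lower with H151 (35.7% and 37%). KRT6A was higher with both drugs (log2 fold change 0.97 and 0.49). The fall in CDH1 with the drugs therefore stood beside falls in most genes of the epithelial list.

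Among 32 other genes of the TGF-beta pathway, all tested, 12 rose and 7 fell in R4KO_1, 15 and 7 in R4KO_2, 13 and 13 with BX_795 and 13 and 12 with H151 in KO_2 cells, 16 and 8 with iR4, and 9 and 18 in H151_iR4 against iR4. CCN2, a matricellular target of TGF-beta and YAP, was the most clearly lower in both knockouts, at 45.4 ± 3.66 CPM in R4KO_1 and 46.01 ± 5.06 CPM in R4KO_2, against 97.9 ± 15.7 CPM in Ctrl. The most clearly higher were ID3 in R4KO_1 (log2 fold change 0.99, edgeR adjusted p = 3.9e-14) and LTBP3 in R4KO_2 (0.76, edgeR adjusted p = 3.9e-12). Of 34 other matrix genes, 31 were tested: 12 rose and 9 fell in R4KO_1, 16 and 10 in R4KO_2, 14 and 14 with BX_795 and 11 and 17 with H151 in KO_2 cells, 10 and 13 with iR4, and 12 and 15 in H151_iR4 against iR4. LAMB3, a chain of laminin-332, had 396 ± 9.89 CPM in H151_iR4 and 1017 ± 39.5 CPM in iR4 libraries, against 431 ± 6.19 CPM in Vehicle libraries. LOXL4, a lysyl oxidase homologue, had 5.92 ± 0.503 CPM with BX_795 and 5.72 ± 0.106 CPM with H151, against 79.8 ± 5.76 CPM in R4KO_2 libraries, the opposite of LOX. Of 19 other mesenchymal genes, 16 were tested in the first experiment, with 4 higher and 4 lower in R4KO_1, 7 and 5 in R4KO_2, 7 and 3 with BX_795 and 5 and 5 with H151. With iR4 7 of 17 rose and 5 fell, and in H151_iR4 4 were higher and 10 lower than in iR4. NT5E, the ecto-nucleotidase CD73, had 136 ± 4.42 CPM with BX_795 and 111 ± 1.74 CPM with H151, against 20.1 ± 0.553 CPM in R4KO_2 libraries. Among those that were lower, SNAI3 had the lowest p with both drugs, at log2 fold changes of -2.45 with BX_795 and -1.86 with H151. Over all genes tested, 33% were called higher and 31.4% lower in R4KO_1, and 34% and 32.2% in R4KO_2. In KO_2 cells the shares were 36.4% and 37.1% with BX_795, and 35.7% and 37% with H151. They were 37.1% and 34.8% with iR4, and 35.1% and 36.3% in H151_iR4 against iR4.

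Of 13 genes that modify or process collagen, 12 were tested in the first experiment, and 4 rose and 3 fell in R4KO_1, 4 and 2 in R4KO_2, 4 and 5 with BX_795 and 4 and 4 with H151. All 13 were tested in the second experiment, where 7 rose and 2 fell with iR4 and 3 were higher and 5 lower in H151_iR4 than in iR4. Of 27 other proteases and inhibitors, 22 were tested: 11 rose and 9 fell in R4KO_1, 10 and 5 in R4KO_2, 6 and 9 with each drug in KO_2 cells, 10 and 5 with iR4, and 4 and 11 in H151_iR4 against iR4. ADAMTS1, a secreted protease of proteoglycans, had 21.3 ± 1.54 CPM with BX_795 and 21.4 ± 0.771 CPM with H151, against 7.62 ± 0.454 CPM in R4KO_2 libraries. TIMP2, an MMP inhibitor that also takes part in MMP2 activation by MMP14, had 186 ± 1.12 CPM in R4KO_1 and 155 ± 4.85 CPM in R4KO_2, against 118 ± 3.17 CPM in Ctrl. Of 12 other integrins, 9 were tested in the first experiment and 8 in the second, with 3 higher and 4 lower in R4KO_1, 2 and 4 in R4KO_2, 5 and 4 with BX_795, 3 and 4 with H151, 1 and 4 with iR4, and 2 and 2 in H151_iR4 against iR4. ITGA2, the collagen receptor chain, had 47.9 ± 7.47 CPM in H151_iR4 and 119.8 ± 12.4 CPM in iR4, against 54.3 ± 3.496 CPM in Vehicle. ITGA6, the laminin receptor chain of hemidesmosomes, had 316 ± 29.7 CPM in R4KO_1 and 394 ± 13.9 CPM in R4KO_2, against 599 ± 38.3 CPM in Ctrl. Of all genes, 33% rose and 31.4% fell in R4KO_1, and 34% and 32.2% in R4KO_2. In KO_2 cells 36.4% were higher and 37.1% lower with BX_795, and 35.7% and 37% with H151. With iR4 37.1% rose and 34.8% fell, and in H151_iR4 35.1% were higher and 36.3% lower than in iR4.

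Levels between genes were compared per kilobase of GENCODE v29 exons. In Ctrl, TGFBI was highest at 176 ± 5.41 CPM per kilobase, followed by ITGB1 at 89.3 ± 3.58 and COL7A1 at 79.4 ± 4.21, then VIM at 61.8 ± 4.48 and MMP13 at 46.2 ± 5.47 (mean ± SD, n = 3). MMP14, at 45.4 ± 1.54, lay within the spread of MMP13. MMP1 (37.97 ± 3.18) and COL5A1 (37.03 ± 0.815) did not differ beyond their spread either. The lowest were PXDN, TGFB2, INHBA and ESM1, each under 0.03 CPM per kilobase. In Vehicle of the second experiment TGFBI was at 255 ± 2.81, ITGB1 at 80.1 ± 3.105, VIM at 66.5 ± 1.55 and COL7A1 at 47.9 ± 3.87 CPM per kilobase, and MMP13 at 23.8 ± 1.82. The baselines belong to different experiments and were not tested against each other.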

How the data were processed

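Polyadenylated RNA of 24 SCC1 libraries was used, and 4 mouse libraries were left out. The deposited values are raw read counts per Ensembl gene, which the authors made, per the submitters' processing notes, with FastQC 0.11.9, Trim Galore 0.6.4, HISAT2 2.2.1 on hg38, featureCounts 2.0.1 and DESeq2 1.42.0. Strand setting and gene annotation were not given in the sources used here. Each file held 37994 lines, of which 2859 repeated an ID, and 35135 IDs were kept. Library totals were 16.04 to 27.94 M counts.

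Comparisons used edgeR 4.0.16 with limma 3.58.1 in R 4.3.3: genes past filterByExpr (minimum count 10), TMM factors and the quasi-likelihood test over the 15 or the 9 libraries of an experiment, or over all 24 for differences between effects, without the replicate number. P-values were adjusted by Benjamini-Hochberg over all genes tested. A second rule also asked for a 2-fold change. Ratios on 3 or fewer counts carry exact 95% intervals for counting error only.

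The 44 genes, their roles and the other lists were chosen with earlier results of these data known. Values per library are given where a gene was called at 2-fold or more without overlap and at 1 CPM or more in either group, and always for VIM, FN1, CDH1, CDH2, SNAI2, ZEB1 and TWIST1. Further per-library values were chosen after they were seen. From the other lists, the gene of lowest p was named in some comparisons, and TP63, LUM, COL3A1 and COL1A1 were chosen after their values were seen.

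Same-numbered libraries did not deviate together (correlations of -0.085 to 0.195, and no comparison had every pair over 0.1), so numbers do not pair libraries. Alternatives were RLE and upper-quartile factors, no filter, a filter of 1 CPM in 3 libraries, all 24 libraries or only the 2 groups in the fit, the replicate block, DESeq2 1.42.0, glmTreat at 1.5-fold, and leaving out each library. The steps were also run on simulated counts in which far fewer genes were changed than were called here. The outcome of that run is not given here.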

Additional observations from a re-analysis of the deposited data

Results flagged for a closer look

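Differences between effects measured against separate controls were tested for each gene, and those called in opposite directions are given here. The iR4 effect differed from the R4KO_2 effect in 19 of 43 genes of the list (20.3% of all genes). COL4A1 was lower with iR4 and higher in R4KO_2, a log2 difference of -0.425, and TNC was higher with iR4 and lower in R4KO_2, a difference of 1.007.

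The iR4 effect differed from the R4KO_1 effect in 27 of 43 genes (35% of all genes). ZEB2 (1.458) and TNC (1.789) were higher with iR4 and lower in R4KO_1. COL4A1 (-0.408), COL4A2 (-0.367) and COL5A1 (-1.063) were lower with iR4 and higher in R4KO_1. The COL4A1 call in R4KO_1 was itself lost with no filter (0.121) or with only the 2 groups in the fit (0.123). The ZEB2 call in R4KO_1 was lost without R4KO_1 replicate 1 or 2 or Ctrl replicate 1, with log2 fold changes of -0.29, -0.38 and -0.26.

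The H151 effect in iR4 cells differed from that in KO_2 cells in 33 of 43 genes (50.7% of all genes). COL5A1 alone of the opposite calls rose with H151 in iR4 cells and fell with it in KO_2 cells, a difference of 0.738. The largest differences the other way were -6.304 in INHBA, -5.617 in ESM1, -4.293 in MFAP5, -2.673 in TNC and -2.104 in FN1. SNAI1 (-1.618), SERPINE2 (-1.012), COL4A2 (-0.729), TGFBI (-0.662), TGFBR2 (-0.556) and LOXL2 (-0.5) also differed. REXO4 was higher in H151_iR4 than in iR4 and in KO_2 H151 than in R4KO_2, the KO_2 H151 libraries held more counts than the R4KO_2 ones, and the part of either was not tested. A difference between KO_2 and R4KO_2 cultures also cannot be told apart from the H151 effect in KO_2 cells.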

How the results depend on the processing

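In the 6 main comparisons no call on a gene of the list changed sign under the alternatives run; calls on single genes in the other comparisons and in the differences between effects were not repeated. Of 3524 repeats, 3423 kept the call, 70 lost it and 31 gained it. Of the counts, 245 of 248 under other settings and 237 of 240 without 1 library stayed within 1.5 times. With glmTreat at 1.5-fold, 11 genes passed in iR4 against Vehicle, compared with 7 at 2-fold or more. With only the 2 groups in the fit, 20 genes were higher and 1 lower in KO_2 BX_795 than in KO_2 H151, compared with 13 and 0. Leaving out 1 library gave 0 to 1 lower in that comparison, the 1 without KO_2 BX_795 replicate 1, and 1 to 2 higher in H151_iR4 against Vehicle, compared with 3. The cause was not tested. With the replicate block, R4KO_1 had 18 genes higher and 16 lower than Ctrl, LOXL2 in R4KO_1 lost its call at -0.11 and ZEB1 with BX_795 gained one at 0.26; no other call changed. By DESeq2 the R4KO_1 calls of TWIST1 (0.244), ZEB1 (-0.315), ZEB2 (-0.410) and LOXL2 (-0.119) were lost. With upper-quartile factors those of ZEB1 (-0.263) and LOXL2 (-0.068) in R4KO_1, MMP10 in R4KO_2 (-0.218), TGFB1 with iR4 (-0.075) and TGFB1 (0.064) and ITGB1 (0.054) in H151_iR4 against iR4 were lost. Upper-quartile factors moved the median of all genes by under 0.1 (log2). INHBA, ESM1, PXDN, MYL9, MMP9, SPARC and ITGB6 rest on few counts in at least 1 group, and 3 libraries a group limit the precision of all values.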
